A study of Mus musculus with 2 samples.

Results

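The genes that carry a mammalian cell through G1 were examined in mouse soft-tissue sarcoma cells silenced for circCsnk1g3, a circular RNA made from exons of Csnk1g3. They comprised 10 genes, matched by symbol among the 25509 genes of the count table: the D-type cyclins Ccnd1, Ccnd2 and Ccnd3, the E-type cyclins Ccne1 and Ccne2, the kinases Cdk4, Cdk6 and Cdk2, the inhibitor Cdkn1b and the pocket protein gene Rb1. All 10 passed the minimum of 10 counts in 1 library or both, as did 12941 genes of the table.

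The sarcoma cells were C57BL/6 mesenchymal stem cells lacking p53 (p53-/-) and carrying a retroviral Ccne1 cDNA (Ccne1+), which both libraries shared. The founding cells had been sorted from bone as CD45-CD31-Ter119-Sca1+PDGFRα+, had formed tumors under the skin, had been passed to the lungs of further mice and had been recovered from sarcoma foci there. They were then transduced with a lentiviral hairpin against the backsplice junction of circCsnk1g3 (shcircCsnk1g3) or with a control hairpin (shCTR). The study sequenced poly(A) RNA of 1 library per condition, so that a difference below is a difference between these 2 libraries, with no replicate check, and an effect of the hairpin cannot be told apart from a difference between cultures. The mice of the study were females bought at 8 to 10 weeks of age, and the number of animals behind each culture was not given in the sources used here.

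Progress through G1 rests on a short relay. D-type cyclins, whose transcription follows mitogens, activate Cdk4 and Cdk6, which phosphorylate the Rb protein and loosen its hold on the E2F transcription factors. E2F in turn drives Ccne1 and Ccne2, whose products activate Cdk2, complete the phosphorylation of Rb and open S phase. The product of Cdkn1b, p27, binds and inhibits cyclin E-Cdk2, and the loss of Rb or the gain of cyclin E bypasses the checkpoint in many tumors, sarcomas among them.

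Paralogs in this relay are related enough that the division of reads between them had to be examined first. The 3 D-type cyclins begin alike, with the L-x-C-x-E motif by which they bind Rb. The first 60 bases of each coding sequence are shown, from GENCODE M21 transcripts on GRCm38, with the codons of the motif in capitals.

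Ccnd1: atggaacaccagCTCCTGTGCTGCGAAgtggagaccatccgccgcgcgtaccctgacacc

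Ccnd2: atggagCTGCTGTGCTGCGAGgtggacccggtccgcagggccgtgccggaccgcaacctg

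Ccnd3: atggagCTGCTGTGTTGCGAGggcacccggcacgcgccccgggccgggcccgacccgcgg

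The motif begins within the first codons of all 3 genes, and outside it the sequences soon diverge. Over their aligned coding sequences Ccnd1 and Ccnd2 were 71.3% identical, and their longest identical run was 20 bases. For the E-type cyclins the identity was 62.3%, and the run was 18 bases. For Cdk4 and Cdk6 the identity was 68.7%, and the run was again 20 bases. The runs of the E-type cyclins and of the kinase pair are shown in capitals within 60 bases of coding sequence, because they are the longest stretches over which a read of one gene could match the coding sequence of its partner.

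Ccne1: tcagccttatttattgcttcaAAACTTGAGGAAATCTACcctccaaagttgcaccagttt

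Ccne2: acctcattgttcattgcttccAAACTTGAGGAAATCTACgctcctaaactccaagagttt

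Cdk4: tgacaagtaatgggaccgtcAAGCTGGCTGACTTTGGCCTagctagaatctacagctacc

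Cdk6: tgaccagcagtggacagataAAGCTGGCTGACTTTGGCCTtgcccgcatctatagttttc

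Windows of 50 bases were then compared with the annotated transcripts of all other genes. For 7 of the 10 genes (Ccnd1, Ccnd2, Ccne1, Ccne2, Cdk2, Cdkn1b and Rb1) no window recurred elsewhere. Ccnd3 shared 143 of 2064 windows with the pseudogene Ccnd3-ps, Cdk4 shared 16 of 2004 and Cdk6 shared 114 of 11476, so that the counts of these 3 depend a little on how reads with several matches were divided. The coding part of the Ccne1 transgene is the same as that of the native gene, and the 2 sources cannot be told apart in a count per gene.

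The libraries held 38792143 counts for shcircCsnk1g3 and 42709996 for shCTR. Counts were scaled by TMM, a correction for library composition, to CPM, and a difference is given as a log2 fold change of shcircCsnk1g3 over shCTR, with the exact 95% interval from the counts in parentheses. Such intervals cover counting error only and not the spread between cultures. The 10 genes had between 1856 and 96636 counts summed over both libraries, and the half-width of their intervals ran from 0.02 to 0.13 on the log2 scale. The 9 tested mesenchymal markers summed to 11112 and 11701 CPM, and of the marker list only Thy1 was below the count minimum. Of the 9, 2 were higher and 7 lower. The higher were Col3a1 (0.37, 0.35 to 0.39) and Col1a2 (0.23, 0.22 to 0.25). Furthest on the lower side were Pdgfra (-0.31, -0.35 to -0.27) and Fn1 (-0.30, -0.32 to -0.28). Leukocyte markers summed to 0.918 and 1.07 CPM with 6 of 10 at 0 in both libraries, among them Cd3e and Adgre1. Endothelial markers summed to 0.485 and 0.757 CPM with 3 of 8 at 0, among them Kdr. Lung epithelial markers summed to 16.1 and 18.2 CPM with 6 of 10 at 0, Epcam and Sftpc included, and most of the sum was Hopx, with 605 and 742 counts (log2 fold change -0.19, -0.34 to -0.03). The overlapping transcripts Yam1 and Gm42418, which carry ribosomal RNA sequence, took 0.411% of the shcircCsnk1g3 counts and 0.127% of the shCTR counts; their part in the results was not tested. Csnk1g3 itself had 2159 and 2411 counts (log2 fold change -0.05, -0.14 to 0.03), which stand for the linear transcript, since a circular RNA has no poly(A) tail.

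Levels of the 10 genes were first compared with each other within a library, per kilobase of annotated exon. Ccnd1 stood far above the others, with 279 CPM per kb after silencing and 227 CPM per kb in the control, ranks 147 and 197 among all genes tested. Cdk4 followed with 129 and 127 CPM per kb. The other 8 genes lay between 4.47 and 14.6 CPM per kb in both libraries. In these cells the transcripts of 1 cyclin and 1 kinase of the first step of the relay thus exceeded all the others of the set.

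**Figure D1:**
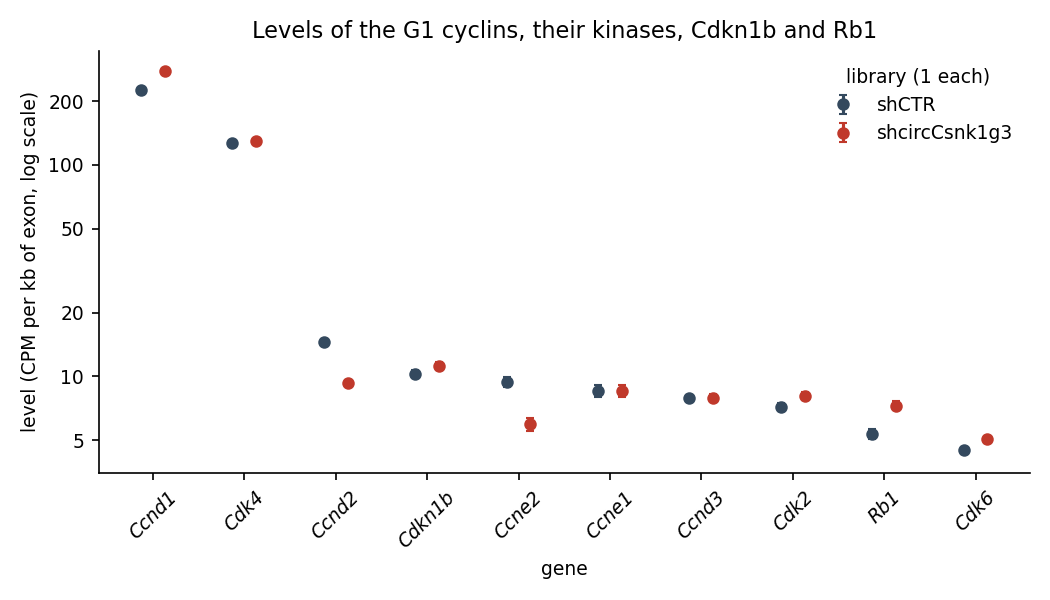
Level of each of the 10 genes in CPM per kilobase of annotated exon (vertical axis, log scale) in the shCTR library (dark) and the shcircCsnk1g3 library (red), 1 library each; bars are exact 95% counting intervals. Ccnd1 and Cdk4 lie above 100 CPM per kb, the other 8 genes below 15 CPM per kb, and Ccnd2 and Ccne2 show the widest gaps between the libraries.

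Ccne1, counted with its transgene, was not among the abundant members. Its level was 8.55 CPM per kb in the silenced cells against 8.56 CPM per kb in control cells, ranks 5293 and 5297 of the genes tested, and Ccnd1 exceeded it 32.6-fold and 26.5-fold (79.7-fold and 64.9-fold per coding length). No library without the transgene was analysed here, so these counts do not check the label of Ccne1 overexpression. In the shCTR library the order below Cdk4 was Ccnd2, Cdkn1b, Ccne2, Ccne1, Ccnd3, Cdk2, Rb1 and Cdk6. The closest neighbours there were Ccne1 and Ccnd3, with a ratio of levels of 1.08 (exact 95% counting interval 1.01 to 1.17), and the interval of the ratio lay above 1 for every pair of neighbours in that library. In the shcircCsnk1g3 library the order was Cdkn1b, Ccnd2, Ccne1, Cdk2, Ccnd3, Rb1, Ccne2 and Cdk6, where Ccne1 and Cdk2 (ratio 1.06, 0.979 to 1.15) and Cdk2 and Ccnd3 (ratio 1.02, 0.958 to 1.08) did not differ beyond counting error. The positions of these 8 depend on the length used. Per base of the longest coding sequence Ccne1 ranked 8 and 9 of the 10 and Cdkn1b 4 and 5, whereas Ccnd1 and Cdk4 kept ranks 1 and 2 with each of the 3 lengths tried.

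Between the libraries, 2 of the 10 genes were at least 1.5-fold lower after circCsnk1g3 silencing, Ccnd2 and Ccne2, and 0 were at least 1.5-fold higher. Among all genes tested 6.31% were at least 1.5-fold lower and 5.39% at least 1.5-fold higher, and over 7776 well-covered genes (1500 counts or more in the sum of both libraries, a depth that all 10 reach) the shares were 1.72% and 0.81%. At 1.2-fold, 2 of the 10 were higher and 2 lower (15.7% and 16.4% of all genes), and at 2-fold 0 were higher and 0 lower (2.13% and 2.55% of all genes). The median log2 fold change of the 10 genes was 0.07, against 0.00 for all genes. The counting interval lay above 0 for 5 of the 10 (26.9% of all genes, 31.2% of the well-covered ones) and below 0 for 2 (28.2% and 34.3%). With 10 genes a share of this kind rests on very few of them, and the counts above describe the set without a test.

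**Figure D2:**
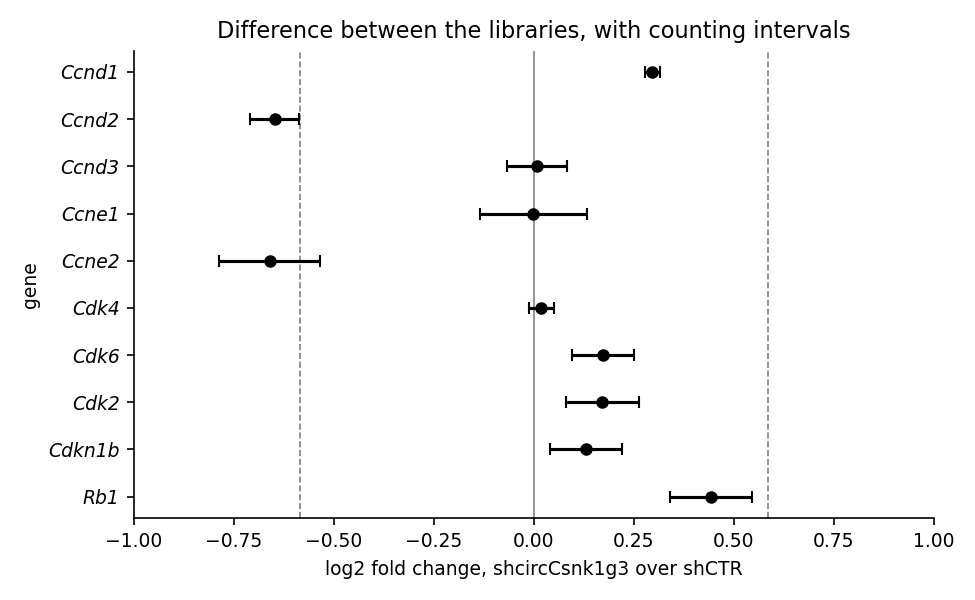
Log2 fold change of shcircCsnk1g3 over shCTR (horizontal axis) for each of the 10 genes, with exact 95% counting intervals; dashed lines mark 1.5-fold. Ccnd2 (-0.65) and Ccne2 (-0.66) lie to the left of the lower line, Rb1 (0.44) and Ccnd1 (0.30) are the furthest to the right, and Ccne1, Ccnd3 and Cdk4 sit on 0.

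Among the D-type cyclins, which couple mitogens to Cdk4 and Cdk6, the 3 genes differed from each other. Ccnd2 (ENSMUSG00000000184, chromosome 6, 127125162 to 127152193, minus strand, GRCm38) had 3428 counts in silenced and 5790 counts in control cells, or 87.4 and 137 CPM. It was 1.57-fold lower in the silenced cells (log2 fold change -0.65, -0.71 to -0.59). Of the 7776 well-covered genes, 99 had a lower value. Ccnd1 (ENSMUSG00000070348, chromosome 7, 144929931 to 144939925, minus strand) had 51473 and 45163 counts, or 1313 and 1069 CPM. It was 1.23-fold higher (log2 fold change 0.30, 0.28 to 0.31), and its high count gave it the narrowest interval of the set. Ccnd3 (ENSMUSG00000034165, chromosome 17, 47505051 to 47599691, plus strand) had 2733 and 2929 counts, or 69.7 and 69.3 CPM, so that no difference could be detected with these counts (log2 fold change 0.01, -0.07 to 0.08).

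The make-up of the D-type pool therefore differed between the libraries. Ccnd2 held 5.95% of the D-type cyclin counts after silencing (exact 95% interval 5.76 to 6.14%) and 10.7% in the control (10.5 to 11.0%). Ccnd1 held 89.3% (89.1 to 89.6%) and 83.8% (83.5 to 84.1%). These shares are taken within a library and do not depend on the scaling between libraries. The ratio of Ccnd2 to Ccnd1 counts was lower by 0.94 on the log2 scale in the silenced cells (change -0.94, -1.01 to -0.88). Because Ccnd1 dominates, the D-type counts as a whole were higher, at 1470 and 1275 CPM (log2 fold change 0.20, 0.19 to 0.22).

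**Figure D3:**
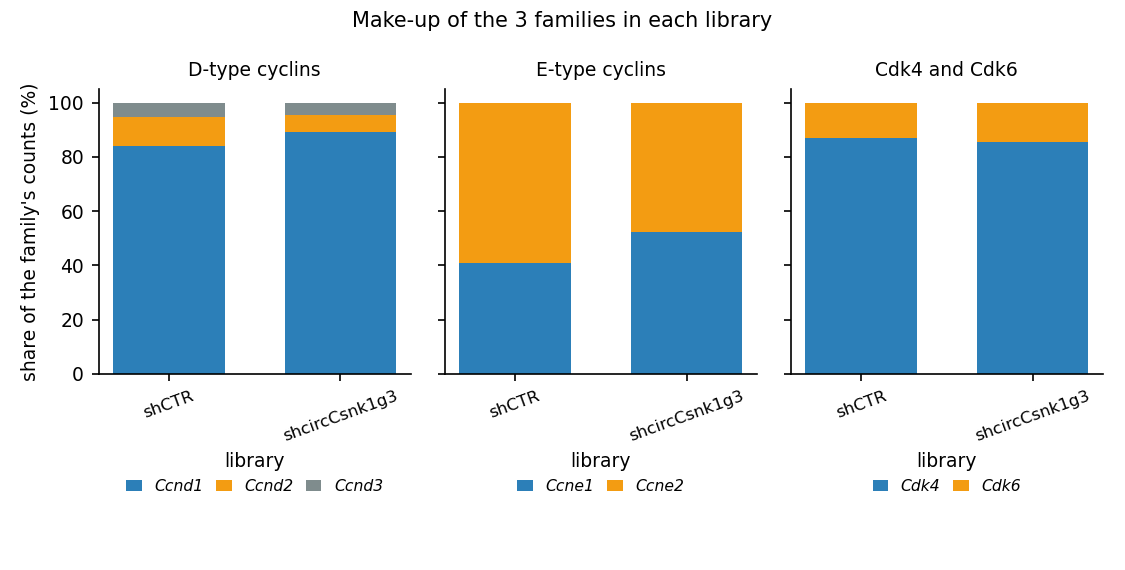
Share of a family's counts (vertical axis, %) held by each gene of the D-type cyclins, the E-type cyclins and the pair Cdk4 and Cdk6, in the shCTR and the shcircCsnk1g3 library. The Ccnd2 band is 10.7% and 5.95%, Ccne2 holds 59.0% and 47.6%, and the Cdk6 band is 13.1% and 14.4%.

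The E-type cyclins, which activate Cdk2 at the end of G1, showed the same kind of split. Ccne1 (ENSMUSG00000002068, chromosome 7, 38097984 to 38107534, minus strand), the engineered gene of this model, had 893 and 963 counts, or 22.8 CPM in both libraries. With these counts no difference could be detected (log2 fold change -0.00, -0.13 to 0.13). Ccne2 (ENSMUSG00000028212, chromosome 4, 11191351 to 11204779, plus strand) had 812 and 1384 counts, or 20.7 and 32.8 CPM. It was 1.58-fold lower in the silenced cells (log2 fold change -0.66, -0.79 to -0.54), and 94 of the well-covered genes had a lower value. The ratio of Ccne2 to Ccne1 counts was lower by the same amount (change -0.66, -0.84 to -0.48).

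Ccne2 accordingly held 59.0% of the E-type counts in the shCTR library (56.9 to 61.0%) and 47.6% in the shcircCsnk1g3 library (45.2 to 50.03%). Summed over both genes, the E-type counts were 43.5 and 55.6 CPM (log2 fold change -0.35, -0.44 to -0.26). How the levels of the pair compare in the shCTR library depends on the length used: the share of Ccne2 was 52.3% per length of all exons, 48.9% per length of the longest transcript and 59.2% per coding length. Per longest transcript the levels there did not differ beyond counting error (ratio of Ccne2 to Ccne1 0.956, 0.880 to 1.04). In the shcircCsnk1g3 library it was 40.9%, 37.7% and 47.9%, and per coding length the levels did not differ beyond counting error (ratio 0.918, 0.834 to 1.01). Ccnd2 and Ccne2 differed between the libraries by like amounts, and the ratio of Ccne2 to Ccnd2 counts changed by -0.01 (-0.15 to 0.13).

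The exons of most of these genes lie near other genes. Of the 10 genes 8 are overlapped by an annotated gene, in most cases on the opposite strand, and the kit keeps the strand, but whether the counting used it was not given in the sources used here. Ccne2 overlaps Ints8 on the opposite strand, a subunit gene of the Integrator complex, which had 3133 and 3076 counts (log2 fold change 0.13, 0.06 to 0.21). Ccne1 and Cdkn1b overlap no annotated gene.

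The values of the 3 kinase genes were small. Cdk4 (ENSMUSG00000006728, chromosome 10, 127063534 to 127067920, plus strand), the main partner of D-type cyclins in many cell types, had 16436 and 17480 counts, or 419 and 414 CPM (log2 fold change 0.02, -0.01 to 0.05). Cdk6 (ENSMUSG00000040274, chromosome 5, 3341485 to 3531008, plus strand), the other partner, had 2763 and 2642 counts, or 70.5 and 62.5 CPM (log2 fold change 0.17, 0.09 to 0.25). Cdk2 (ENSMUSG00000025358, chromosome 10, 128697939 to 128705031, minus strand), the kinase of E-type cyclins, had 1967 and 1882 counts, or 50.2 and 44.5 CPM (log2 fold change 0.17, 0.08 to 0.26). All 3 values were above 0, that of Cdk4 by less than its counting error, and all were below 1.2-fold. Cdk6 held 14.4% of the counts of the pair Cdk4 and Cdk6 in the silenced cells (13.9 to 14.9%) and 13.1% in the control (12.7 to 13.6%).

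Cdkn1b and Rb1, whose products restrain the relay, both had values above 0. Cdkn1b (ENSMUSG00000003031, chromosome 6, 134920401 to 134925513, plus strand) had 2005 and 1974 counts, or 51.1 and 46.7 CPM (log2 fold change 0.13, 0.04 to 0.22). Its ratio to Cdk2 differed by less than counting error (-0.04, -0.17 to 0.09). Rb1 (ENSMUSG00000022105, chromosome 14, 73183673 to 73325822, minus strand) had 1717 and 1361 counts, or 43.8 and 32.2 CPM. It was 1.36-fold higher in the silenced cells (log2 fold change 0.44, 0.34 to 0.55), the largest positive value of the 10 genes, and 163 of the 7776 well-covered genes had a higher one.

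**Figure D4:**
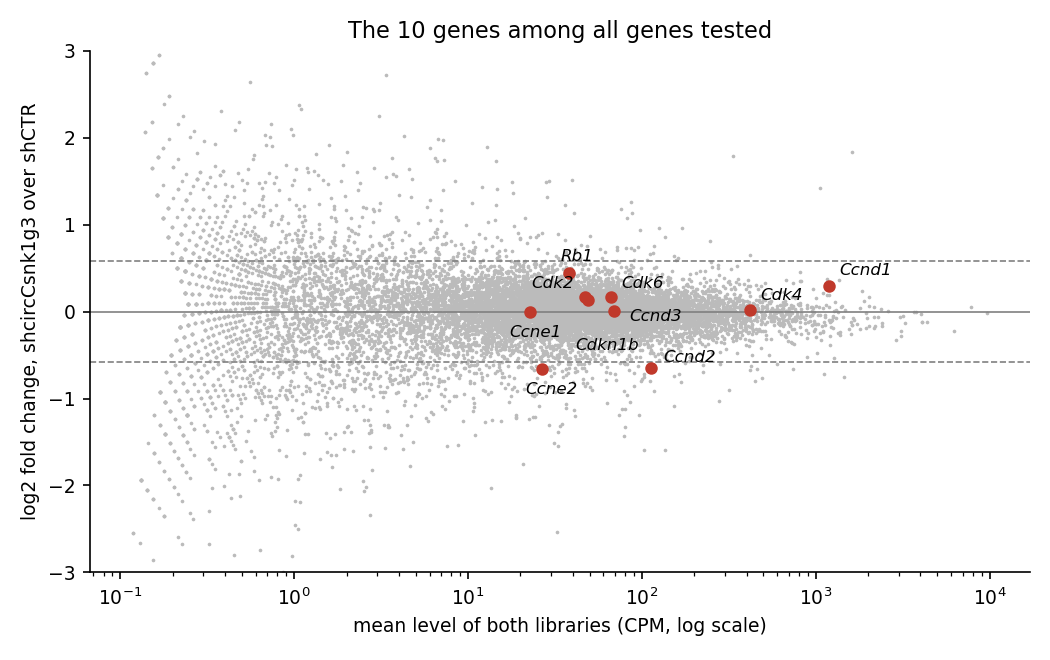
Log2 fold change of shcircCsnk1g3 over shCTR (vertical axis) against the mean CPM of both libraries (horizontal axis, log scale) for the 12941 genes tested (grey) and the 10 genes (red); dashed lines mark 1.5-fold, and 25 genes lie outside the plotted range. The cloud narrows towards high levels; Ccnd2 and Ccne2 lie below its dense part, Rb1 and Ccnd1 near its upper edge, and the other 6 inside it.

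The other genes of the pathway were taken from lists drawn up by function. Of the 6 other inhibitors of G1 kinases, 4 passed the count minimum (median -0.21, or -0.11 in the deposited TMM-scaled table and -0.30 over genes with at least 200 summed counts), and 0 of these were past 1.5-fold in either direction. Cdkn1a, the p53 target that encodes p21, had 2071 and 1515 counts (log2 fold change 0.56, 0.46 to 0.66). The genes for 2 inhibitors of Cdk4 and Cdk6 were lower, Cdkn2d with 851 and 1164 counts (log2 fold change -0.34, -0.47 to -0.22) and Cdkn2c with 2681 and 3553 counts (log2 fold change -0.30, -0.37 to -0.23). Cdkn2a, which encodes p16 and p19Arf, and Cdkn2b, which encodes p15, had 0 counts in both libraries, where a count of 0 allows up to 3 counts, or 0.0765 CPM in silenced and 0.0710 CPM in control cells.

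Pocket proteins, E2F factors and subunits of the DREAM complex, which act where Rb acts, showed small values in both directions. Among 18 genes, 11 had positive and 7 negative values (median 0.03), and 0 were past 1.5-fold. E2f8 and E2f4, 2 factors mostly known as repressors, had values of -0.33 (-0.40 to -0.26) and -0.26 (-0.31 to -0.21), and E2f2, an activator, had 0.25 (0.13 to 0.38), next to Tfdp2, a dimerization partner, with 0.22 (0.14 to 0.31). Of 28 E2F target and DNA replication genes, 16 had positive and 12 negative values (median 0.03), from -0.20 for Orc1 to 0.29 for Ung, and 0 were past 1.5-fold. Pola1, the catalytic subunit of the primase-polymerase, had 4995 and 4513 counts (log2 fold change 0.25, 0.20 to 0.31). Ccne2, itself an E2F target, thus lay outside the range of these 28 genes. Ccne1 lay inside it, but its count includes the transgene, and a response of either gene to E2F was not tested.

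**Figure D5:**
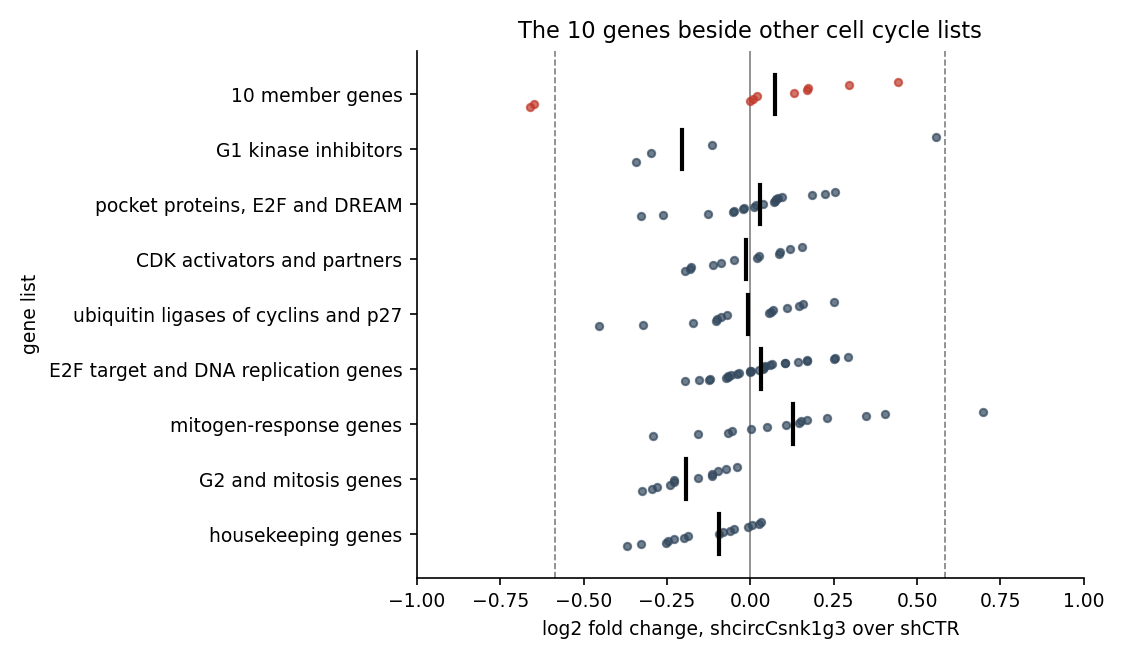
Log2 fold change of shcircCsnk1g3 over shCTR (horizontal axis) for each tested gene (points, spread vertically in rank order) of the 10 genes and 8 other lists; black bars are medians and dashed lines mark 1.5-fold. The 10 genes span -0.66 to 0.44, the 28 E2F target genes -0.20 to 0.29, and all 12 G2 and mitosis genes lie below 0.

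Genes that act on the cyclin-kinase complexes had values in both directions, and 0 were past 1.5-fold. Of 12 activators, partners and inhibitors of the kinases (the last being Wee1 and Pkmyt1), 6 had positive and 6 negative values (median -0.01). The counting interval lay above 0 for 2 of the 12 and below 0 for 5. Among all genes it lay above 0 for 26.9% and below 0 for 28.2%, and among the well-covered ones for 31.2% and 34.3%. Cdk1, the mitotic kinase, had 7527 and 9297 counts (log2 fold change -0.20, -0.24 to -0.15), Cdc25a, the phosphatase that activates Cdk2, had -0.18 (-0.30 to -0.07), and Pkmyt1, an inhibitory kinase of Cdk1, had 0.15 (0.06 to 0.25). Mnat1, a subunit of the Cdk-activating kinase, had 0.12 (-0.01 to 0.26). A further list held 14 genes for ubiquitin ligases of cyclins and p27 and for factors that act on or against them. Among the latter were Fbxo5, whose product inhibits a ligase, and Usp28, whose product removes ubiquitin. Of the 14, 7 had positive and 7 negative values (median -0.01), with the interval above 0 for 5 and below 0 for 7. Fbxw7, whose product marks cyclin E for degradation, had 420 and 621 counts (log2 fold change -0.45, -0.64 to -0.28), and Cul4a had 6800 and 9167 counts (log2 fold change -0.32, -0.37 to -0.28). On the other side were Fbxo31, an F-box gene linked to cyclin D1 turnover, with 0.25 (0.13 to 0.37), and Fbxo4 with 0.16 (0.01 to 0.31).

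Of 14 tested mitogen-response genes, 10 had positive values and 4 negative ones (median 0.13). The list mixes transcription factors with feedback inhibitors of mitogen signalling (Dusp4, Dusp6, Spry2, Spry4 and Spred1), so the count does not give a direction of mitogen input. The 1 gene of the 14 past 1.5-fold was Fos, where 5.39% of all genes were at least 1.5-fold higher. Fos, named here after its value was seen, had 319 and 211 counts (log2 fold change 0.70, 0.45 to 0.96). Spry2 and Etv5, which respond to ERK signalling, had 0.40 (0.29 to 0.51) and 0.35 (0.30 to 0.39), while Jun had 12436 and 16417 counts (log2 fold change -0.29, -0.33 to -0.26) and Fosl1 had -0.16 (-0.21 to -0.11). All 12 G2 and mitosis genes, which act after G1, had values below 0 (median -0.19), against 6420 of the 12941 genes tested. Of the 12, 11 had the counting interval below 0 (28.2% of all genes, 34.3% of the well-covered ones), and 0 were past 1.5-fold. Aurkb and Cdc20 were the furthest, with -0.32 (-0.39 to -0.26) and -0.29 (-0.34 to -0.25). Of 15 housekeeping genes 12 had values below 0 as well (median -0.09), 9 of them with the interval below 0, among them Gusb with -0.37 (-0.50 to -0.24) and Actb with -0.33 (-0.34 to -0.32). Rpl13a and Ywhaz had 0.03 (0.00 to 0.05) and 0.03 (0.01 to 0.05).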

How the data were processed

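Poly(A) RNA of 2 cultures, 1 per condition, was sequenced from TruSeq Stranded mRNA libraries. The authors converted reads with bcl2fastq 2.20, aligned them to GRCm38 with STAR 2.6.1 and summarised them per gene with RSEM 1.2.28, and the deposited table gives these estimated counts as whole numbers. Its 92 spike-in rows were 0 and were left out. A deposited table of TMM-scaled CPM for 11624 genes, made by the authors with edgeR, equals the counts times 1 constant per library and served as an alternative. Its gene filter was not given in the sources used here.

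TMM factors (1.01 for shcircCsnk1g3, 0.989 for shCTR) were computed in edgeR 4.0.16 (R 4.3.3) over 12941 genes that reached 10 counts in either library. Log2 fold changes used a prior count of 2. No test between conditions was possible. Intervals of count ratios and shares are 95% Clopper-Pearson intervals, those of levels are exact Poisson intervals, and those of the change in the ratio of 2 genes use the normal approximation on log counts. Lengths and coordinates are from GENCODE M21, which held 25251 of the 25509 gene identifiers. Coding sequences were aligned globally with biopython 1.88. Other steps used python 3.11.15, scipy 1.17.1, numpy 2.4.6, matplotlib 3.10.9 and pandas 2.3.3. The log2 fold changes and the intervals of count ratios were tested on simulated Poisson counts, which hold no spread between cultures. The scaling, the shares, the levels and the sequence comparisons were not tested in this way. The 10 genes and the gene lists were chosen with earlier results of these data known. Named from each list were the 2 largest values in each direction whose mean over both libraries reached 10 CPM. A gene named by this rule is not reported here. Alternatives were DESeq2 1.42.0 size factors, total counts, other prior counts, filters, thresholds and gene lengths.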

Additional observations from a re-analysis of the deposited data

How the results depend on the processing

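No paired analysis was possible because each condition had a single library. For the same reason no replicate could be left out. Of 50 values of single genes under other scalings and prior counts, 48 stayed within their counting intervals, and a count filter cannot move them. The exceptions came with total counts, where Ccnd1 was 0.33 and Cdk4 0.05. Ccnd2 ranged from -0.65 to -0.62 and Ccne2 from -0.66 to -0.63, while Ccne1 ranged from -0.00 to 0.03. At a threshold of 1.2-fold, 2 of the 10 genes were higher and 2 lower, and at 2-fold 0 were lower. Over all genes, 2030 were higher and 2121 lower at 1.2-fold, and 275 and 330 at 2-fold. At 1.5-fold the 698 higher and 817 lower genes became 352 and 528 in the deposited TMM-scaled table, 1765 and 1468 without a count filter, 405 and 533 with at least 50 summed counts, and 212 and 335 with at least 200. A stricter minimum or threshold keeps fewer genes by its construction. For the deposited table, the cause was not tested. Of 66 list medians that moved at all, 65 moved by less than the typical counting interval of the list's genes. The exception was the housekeeping list, at -0.061 with total counts.

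Levels and shares per length depend on the length. Only 2 of 20 levels per longest transcript and 0 of 20 per coding length stayed within their counting intervals, against 18 of 20 with total counts. Per longest transcript and per coding length, Ccnd2 held 3.61% and 6.06% of the D-type cyclins in the shcircCsnk1g3 library (3.14% per exon length) and 6.65% and 10.9% in the shCTR library (5.84%). Ccne2 held 37.7% and 47.9% of the E-type cyclins in shcircCsnk1g3 and 48.9% and 59.2% in shCTR. Cdk6 held 2.91% and 13.5% of Cdk4 and Cdk6 in shcircCsnk1g3 and 2.62% and 12.3% in shCTR. At 10 counts in each library the interval has a half-width of 1.42 on the log2 scale, and at 1000 counts 0.13.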

Other observations

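Cdkn2a and Cdkn2b, 2 neighbouring inhibitor genes on chromosome 4 (89274471 to 89294653 and 89306299 to 89311039, GRCm38), had 0 counts in both libraries. Mtap, which lies beside them (89137122 to 89181081) and was chosen after its value was seen, had 27667 counts in silenced and 25500 in control cells (706 and 604 CPM).

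Trp53, labelled as deleted in these cells, had 3841 counts in silenced and 4334 in control cells (log2 fold change -0.07, -0.13 to -0.00). A count per gene does not show which exons the reads come from, and the deleted part was not given in the sources used here, so these counts do not check the label.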
